A study of Mus musculus with 2 samples.

Results

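The transcripts described here are 773 GENCODE mouse transcript models of the type retained_intron that reached set levels in e12.5 mouse liver. A retained-intron model is an alternatively spliced transcript that an annotator judged to hold intron sequence of another transcript of the same gene. Members were chosen on measured values: a model was taken if it had at least 5 TPM (transcripts scaled to a fixed total, per base of length) and an expected count of at least 50 in each of the 2 libraries. Of the 14285 retained-intron models in the tables, 773 (5.41%) passed both minimums, and the tables held 129984 entries in all. A further 11036 models had reads but missed a minimum, 197 of them in 1 library only, and 2476 (17.3%) had an expected count of 0 in both libraries. At the edge of the TPM minimum, Arhgef2-230 was just inside with 5.01 TPM in each library, and Gas5-205 was just outside with 5.15 and 4.99 TPM. The levels that follow therefore describe a set chosen for its level.

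The study measured total RNA in the livers of mixed-sex B6NCrl embryos at embryonic day 12.5, without any treatment or genetic change. There were 2 libraries of 1 group, each from a pool of embryos (120 in replicate 1 and 88 in replicate 2), so a difference between them is a difference between 2 pools. Each library started from 10 ng of RNA longer than 200 nt, with spike-in RNA added. With 1 group, no test between conditions was possible, and every value below is a description. The libraries held 37562366 and 34729955 expected counts, and the members took 3.77% and 3.87% of them. Their gene-level markers were those of fetal liver: Hba-a1 of red cells stood at 45881 and 46967 TPM, Afp of hepatoblasts at 5312 and 5136 TPM, and the T cell gene Cd3e at 0 in both. Expected counts are reads shared out among the transcripts they could come from by an estimation model. IsoPct is the percent of a gene's TPM that the model gave to 1 transcript, and a short transcript has a higher share of TPM than of reads.

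Introns are cut from a pre-mRNA by the spliceosome, which recognises a GT at the start and an AG at the end of most introns. A transcript that keeps an intron is commonly held in the nucleus or, when exported, often meets a stop codon in the kept sequence and is degraded by nonsense-mediated decay. In developing red cells, intron retention is known as a normal layer of gene control, and it is also well known in genes of the splicing machinery. Total RNA holds nuclear and unfinished transcripts beside mature mRNA, and these tables cannot tell the kinds apart.

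The models fell into 2 kinds by structure, which the following sequences from the GENCODE M21 transcripts show (build mm10). The first kind keeps a whole intron of another transcript. These 3 introns, each between 2 coding exons, are read from members at high TPM, 5′ to 3′ on the gene's strand, with the first and last 2 bases in capitals.
Rps20-201 (chr4:3835292-3835483, minus strand): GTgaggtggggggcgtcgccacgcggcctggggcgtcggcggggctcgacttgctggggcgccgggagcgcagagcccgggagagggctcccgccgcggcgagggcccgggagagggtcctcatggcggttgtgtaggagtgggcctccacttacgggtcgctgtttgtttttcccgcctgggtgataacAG
Hnrnpk-217 (chr13:58393775-58393852, minus strand): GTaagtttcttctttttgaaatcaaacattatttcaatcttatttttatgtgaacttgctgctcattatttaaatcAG
Mrps24-201 (chr11:5707556-5707623, minus strand): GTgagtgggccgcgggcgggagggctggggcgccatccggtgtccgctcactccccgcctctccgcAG
All 3 open with GT and close with AG. They were 192, 78 and 68 nt long, with a GC content of 71.9%, 24.4% and 77.9%. Read in the frame of the exon before them, the introns of Rps20 and Hnrnpk held a stop codon, and that of Mrps24 held none but is not a multiple of 3 long.

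The second kind keeps no whole intron, and most of its models begin or end within one. These 3 stretches, chosen after their values were seen, show the intron bases in capitals and the 20 neighbouring exon bases in lower case, with coordinates of the intron bases.
Hba-a1-202 (chr11:32283811-32283923, plus strand): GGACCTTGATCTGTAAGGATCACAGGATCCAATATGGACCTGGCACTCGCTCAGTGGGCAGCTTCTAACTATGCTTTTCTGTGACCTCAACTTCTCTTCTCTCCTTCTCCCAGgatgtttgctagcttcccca
Trf-209 (chr9:103211997-103212006, minus strand): CTCTACCCAGgaaagaaccctgccgaatgg
Rps19-206 (chr7:24888190-24888281, plus strand): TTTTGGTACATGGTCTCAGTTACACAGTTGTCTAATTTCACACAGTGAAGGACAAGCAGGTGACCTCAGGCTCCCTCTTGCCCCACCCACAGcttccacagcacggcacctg
Each of these models starts in the intron and runs through its AG into the exon, without the 5′ splice site. Hba-a1-202 has 113 intron bases among its 494, Rps19-206 has 92 among 395, and Trf-209 has only 10 among 433.

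The share of a gene's TPM given to a member was mostly small. The median IsoPct was 15.3 in replicate 1 and 15.5 in replicate 2, with quartiles of 6.50 to 30.1 and 6.51 to 29.9. By the mean of both libraries, 277 members were under 10, 250 from 10 to under 25, 192 from 25 to under 50, 42 from 50 to under 75 and 12 at 75 or more. A member exceeded 50 in both libraries in 52 cases (6.73%) and was the leading transcript of its gene in both in 117. In 73 host genes the members together exceeded 50 in both libraries. As a share of the gene's expected counts, the median member held 7.03%, below the median IsoPct of 15.6. A transcript shorter than the others of its gene has a lower share of reads than of TPM. Of 749 members with a coding transcript in their gene, 605 were shorter than the leading one.

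Under the same minimums, in genes with more than 1 transcript, the 772 members had the lowest median IsoPct of the 4 main types, 15.5. It was 23.3 for 531 processed transcripts, 25.2 for 311 transcripts typed as targets of nonsense-mediated decay and 62.4 for 7388 protein-coding transcripts. Retained-intron models passed the minimums in 7.82% of cases in detected genes (gene TPM of at least 5 in both libraries). That was close to processed transcripts at 7.89%. It was below targets of nonsense-mediated decay at 10.2% and protein-coding transcripts at 34.8%. The spread of the read assignment was larger for members than for coding transcripts and slightly smaller than for the other 2 types. The median posterior standard deviation of the count was 7.26% and 7.45% of its mean in the 2 libraries for members, against 3.33% and 3.51% for protein-coding transcripts, 8.21% and 8.19% for targets of nonsense-mediated decay and 7.83% and 8.3% for processed transcripts. It exceeded 20% in 84 members, and the deposited TPM interval reached under 5 in 226. Median expected counts differed too, at 294 and 262 for the 772 members and 1244 and 1149 for protein-coding transcripts. They were 589 and 551 for targets of nonsense-mediated decay and 273 and 254 for processed transcripts. The part of the count in this spread was not tested.

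**Figure D1:**
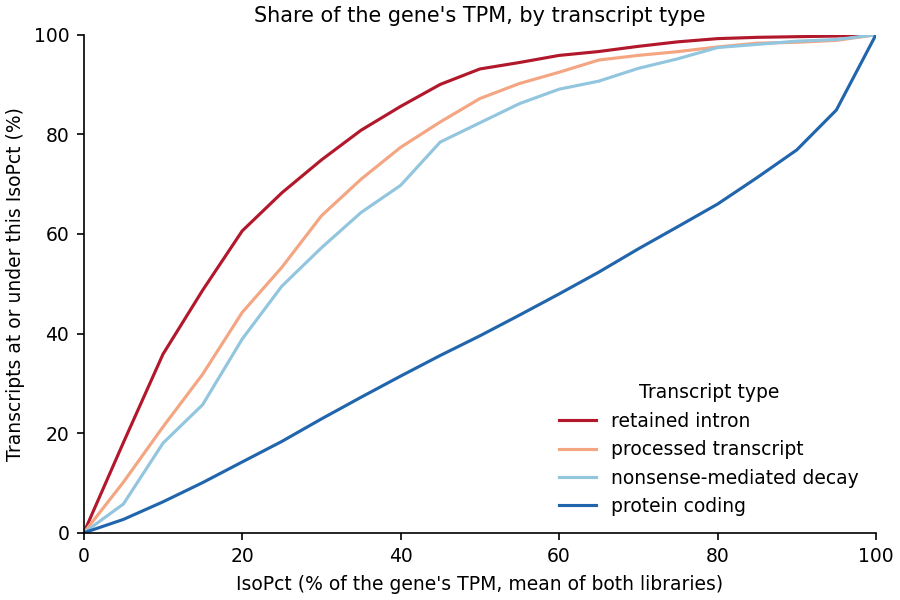
Cumulative share (%) of transcripts at or under each IsoPct (horizontal axis, percent of the gene's TPM, mean of both libraries) for 4 transcript types past the same minimums in multi-isoform genes. The retained-intron curve lies above the others over most of the range: its median is 15.5, against 62.4 for protein-coding transcripts.

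The 2 highest members were globin models, subunits of the oxygen carrier haemoglobin. Hba-a1-202 (ENSMUST00000142555.1, chr11:32283811-32284438) had 36966 and 37934 TPM, an IsoPct of 80.6 and 80.8 and 73.2% and 73.4% of the gene's expected counts. The coding transcript of the same gene, Hba-a1-201, had 8915 and 9033 TPM. Hbb-bs-202 (ENSMUST00000131960.1) had 30922 and 32701 TPM and an IsoPct of 66.9 and 67.5, and its coding partner Hbb-bs-201 had 15227 and 15690 TPM. In both genes the retained-intron model was therefore above the coding one in each library. The near-identical paralog Hba-a2 showed the opposite: its coding transcript of 554 nt had 106430 and 107442 TPM, and its own retained-intron model, also of 494 nt, had 1.30 and 3.28 TPM. Hba-a1-201 is 699 nt in the tables and its first exon is 291 nt long. Reads of the 2 alpha-globin genes can be split either way, so the level of Hba-a1-202 is uncertain. The same holds for Hbb-bs and its paralog Hbb-bt. The deposited TPM interval of Hba-a1-202 in replicate 1, 36093 to 36510, did not hold its TPM of 36966. Hbb-bs-202 is 549 nt in the tables but 344 nt in M21, so its structure was not used here.

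The globin pair dominated the sums. Members held 8.78% and 9.01% of all TPM with the globins and 1.99% and 1.95% without them. Of the expected counts of their host genes, all members held 22.9% and 23.5%. With Hba-a1 and Hbb-bs left out of both the members and the host genes, this was 10.8% and 10.9%.

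**Figure D2:**
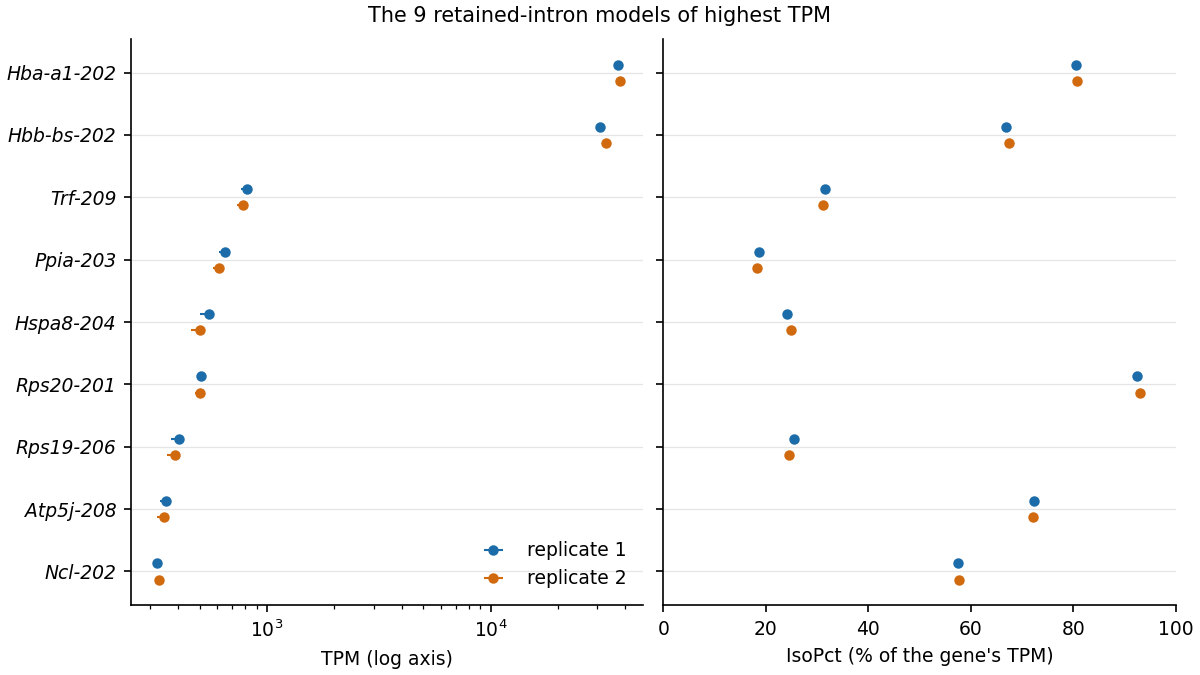
TPM (left, log axis) and IsoPct (right, percent of the gene's TPM) of the 9 members of highest mean TPM in replicate 1 (blue) and replicate 2 (orange); lines run from each point to the bounds of the deposited TPM interval where these lie beyond it. The 2 globin models lie between 30922 and 37934 TPM, while the others lie between 323 and 810.

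Outside the globins, the highest members belonged to abundant secreted, chaperone and ribosomal genes. Trf-209, in the gene of the iron carrier transferrin, had 810 and 777 TPM and an IsoPct of 31.5 and 31.2. That was 6.05% and 5.95% of the gene's expected counts, and the model rests on 10 intron bases. Ppia-203, of the prolyl isomerase cyclophilin A, had 650 and 612 TPM. Hspa8-204, of a constitutive heat-shock chaperone, had 548 and 500 TPM. Cdk4-209, of the kinase that drives cells out of G1, had 260 and 258 TPM and led its gene with an IsoPct of 39.4 and 39.9, on 25 intron bases. The libraries differed by at most 1.1-fold in TPM in each of these 4 models.

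Several members of high IsoPct did keep a whole intron. Rps20-201, of a protein of the small ribosomal subunit, had 506.8 and 500.8 TPM and an IsoPct of 92.5 and 92.9. The leading coding transcript of the gene, Rps20-203, had 33.6 and 32.0 TPM. By distance from its 5′ end, its first exon ends at 181 bases and Rps20-201 starts at 177. The member thus holds only a few exon bases before the kept intron. That coding transcript is 3706 nt long, 3139 of them beyond the 3′ end of Rps20-201. Mrps26-201, of the mitochondrial ribosome, had an IsoPct of 95.4 and 94.9. Its coding partner Mrps26-202 is 4278 nt long with 3301 beyond the member's 3′ end. Ncl-202, of nucleolin, a nucleolar protein of ribosome assembly, kept introns of 190 and 492 nt and had an IsoPct of 57.6 in both libraries, against 7.21 and 6.70 for the 8202-nt coding Ncl-201. Mrps24-201, with the 68-nt intron printed above, had an IsoPct of 73.97 and 75.03. Each of the 4 members led its gene in both libraries. The tables hold 1 value a transcript and no coverage along it, so reads on the kept intron cannot be told from reads on the shared exons.

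The length of the coding transcript moved with IsoPct across members. Among 665 members whose own length and whose coding partner's length are the same in both annotations, the median length of the leading coding transcript was 1788 nt for the 227 members with an IsoPct under 10. It was 2107 nt for 224 members from 10 to under 25, 2694 nt for 166 from 25 to under 50 and 3108 nt for 48 at 50 or more. The median length of the members themselves was 811, 696, 802 and 677 nt in these classes. The coding transcript had over 1000 exon bases beyond the member's 3′ end, untranslated ones included, for 33.0% of the lowest class and 47.9% of the highest. The part of these annotated ends in the IsoPct values was not tested.

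Members were short. Their median length was 760 nt, with quartiles of 554 and 1300 nt, against 2230 nt for the protein-coding transcripts past the same minimums. Short length goes with the annotation type: the median was 791 nt for all retained-intron models of detected genes and 675 nt for processed transcripts past the minimums. Of the 773, 534 (69.1%) were under 1000 nt. In the 749 with a coding transcript in their gene, 605 were shorter than the leading one, and the median member had 45.3% of its length. The range was wide. Psme2-203, of a proteasome activator, was 185 nt and had 56.3 and 58.1 TPM at an IsoPct of 29.5 and 30.7. Tmed7-202, of a cargo receptor of the early secretory path, was 7982 nt and had 19.7 and 18.8 TPM at an IsoPct of 30.5 and 30.6. Both had nearly the same share of their gene's TPM, a measure per base of length. As annotated, Psme2-203 is shorter than the 200-nt minimum of the RNA used, so its level is uncertain. The 28 members of up to 400 nt had a median of 24 TPM on 161 expected counts. The 135 over 2000 nt had 9.01 TPM on 793. Among the long members, Bcl11a-205 (5885 nt, 6.54 and 6.98 TPM) belonged to the repressor of fetal globin genes, and Slc25a37-203 (5927 nt, 32.7 and 35.2 TPM) to mitoferrin, the iron importer of red cell mitochondria.

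Most members did not contain an intact intron. The structure was read for the 737 members whose length is the same in the tables and in M21, and 36 others were left out. The reference was the exons of the gene's protein-coding transcripts or, without any, of its transcripts of other types than retained intron. Counting any other transcript of the gene, 271 members (36.8%) kept a whole intron. Whole introns of a reference transcript were kept by 252 members (34.2%), and 485 (65.8%) kept none of these. The split by structure below is the one by reference transcripts. Of these 485, 245 started inside an intron, 211 ended inside one, 18 did both and 11 did neither. Of the 252 that kept one, 189 kept 1, 38 kept 2 and 25 kept 3 or more, up to the 11 annotated introns of Nop56-212. Introns of different transcripts that overlap count separately, as several of Nop56-212 do, so these are not counts of separate stretches. The same holds for the counts of kept introns below. The median member had 24.2% of its bases, or 192 nt, outside reference exons. In 87 members at most 50 bases lay outside, and in 149 over 50% did.

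Models with little intron sequence had the higher IsoPct. The median was 26.2 for 152 members with up to 10% of bases outside reference exons, 17.5 for 226 above 10% and up to 25%, 12.3 for 210 up to 50%, 8.18 for 114 up to 75% and 11.7 for 35 above that. Members that kept a whole intron of a reference transcript had a median IsoPct of 9.78, and 22 of 252 (8.73%) led their gene in both libraries. Those that kept none had a median of 18.9, and 87 of 485 (17.9%) led. The same split held in each library, with medians of 9.87 and 18.9 in replicate 1 and 9.92 and 19.2 in replicate 2. The 2 groups also differed in length, with a median of 928 nt for members that kept an intron and 674 nt for the others. The part of length in this split was not tested. Retained-intron models that missed the minimums in genes of at least 5 TPM (8838 models) had a median of 41.1% of bases outside, and 31.3% of them kept a whole intron.

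**Figure D3:**
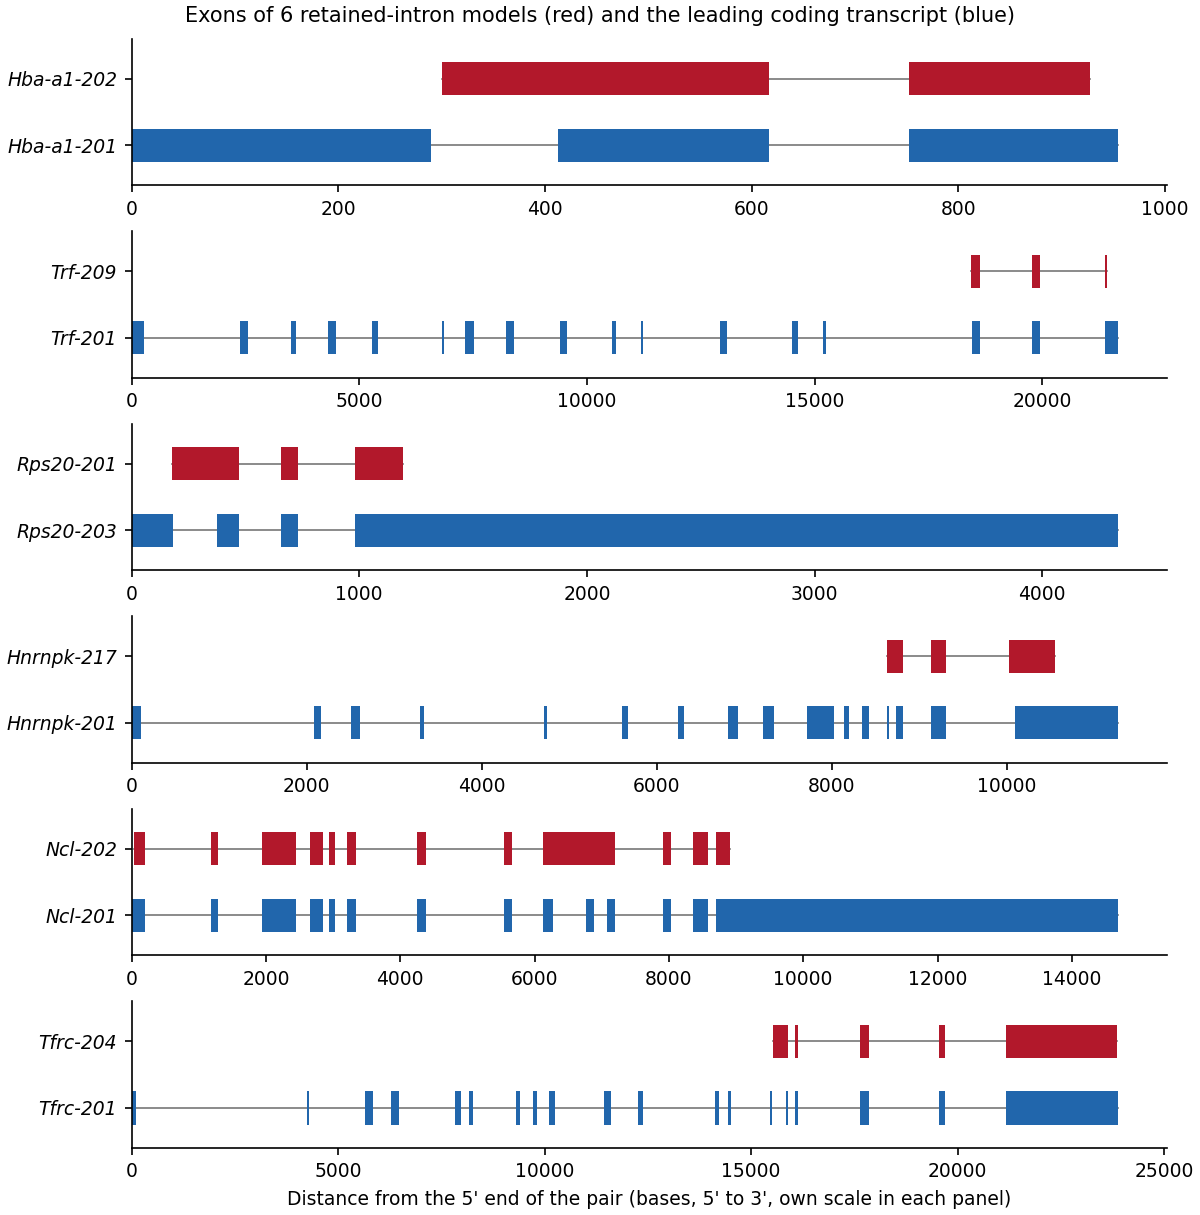
Exons (boxes) and introns (lines) of 6 members in red and of the leading coding transcript of the same gene in blue, against the distance in bases from the 5′ end of the pair. Rps20-201, Hnrnpk-217 and Ncl-202 have boxes that span an intron of the coding transcript, while Hba-a1-202, Trf-209 and Tfrc-204 keep no whole intron.

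The introns that members did keep were short. There were 340 of reference transcripts, in 205 genes. The 321 of protein-coding transcripts had a median length of 210 nt, with quartiles of 103 and 490 nt. In genes where a member kept a whole intron of any other transcript, introns of the coding transcripts that lie in no retained-intron model had a median of 718 nt (2409 introns). In all other detected multi-isoform genes it was 1465 nt (77475 introns). Up to 500 nt were 75.7% of the kept introns of coding transcripts, 41.3% of the others in those genes and 24.4% in the other genes. Coding-transcript introns kept only by models that missed the minimums had a median of 248 nt over 3540, with quartiles of 113 and 627 nt. Kept introns were thus shorter than introns that no model keeps, whether or not the model that keeps them passed the minimums. An intron counts as kept only where it lies wholly in 1 exon of a model. The median length was 760 nt for members and 793 nt for the models that missed the minimums. Most models were therefore too short to hold a long intron, so this contrast cannot be read as a property of the introns alone.

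**Figure D4:**
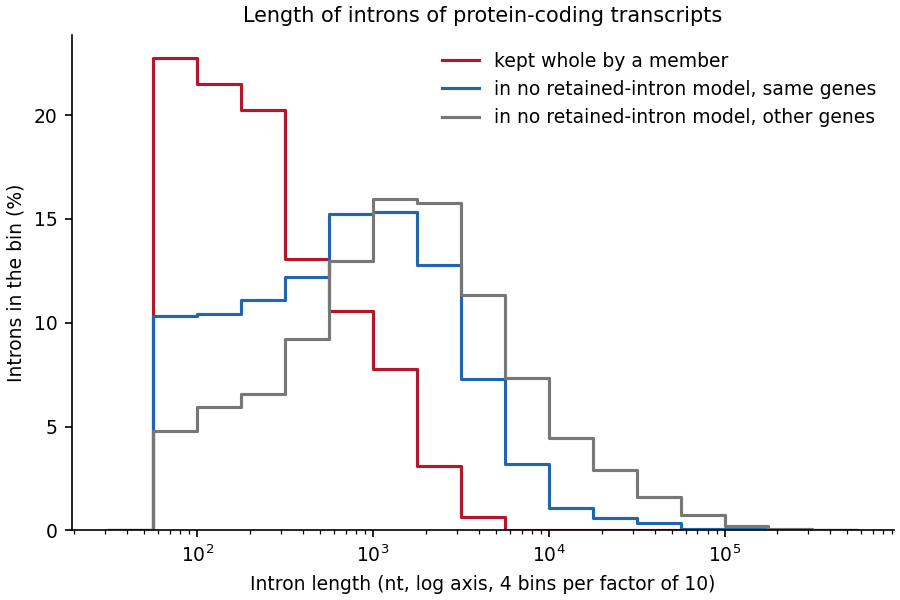
Length of introns of protein-coding transcripts (horizontal log axis, nt) as the percent of each set in a bin: 321 kept whole by a member (red), 2409 that no retained-intron model keeps in genes where a member kept an intron (blue) and 77475 in other detected multi-isoform genes (grey). The kept introns lie to the left, with a median of 210 nt against 718 and 1465 nt. The length of a model limits the introns that it can keep.

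Splice site letters and base composition were close to those of introns kept by models that missed the minimums. Counting introns of any other transcript, members kept 428, of which 419 (97.9%) run from GT to AG and 107 (25%) open with GTAAGT or GTGAGT, as against 97.4% and 22.7% of 4195 introns kept only by other models. The median GC content was 50% and 51.2%. Of the 298 kept introns that lie between 2 coding exons, 267 (89.6%) held a stop codon in the reading frame and 101 were a multiple of 3 long, against 88.1% with a stop among 3304 in the other models. Only 8 (2.68%) were both a multiple of 3 and free of a stop, near the 98 (2.97%) in the other models. They were named after their values were seen. They lie in Gapdh and Tuba1b, of glycolysis and the cytoskeleton, in Gabarap of autophagy, in Vars, the valine tRNA synthetase, and in Dalrd3, Ifrd1, Ssr4 and Timm17b. They were 63 to 156 nt long.

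Host genes were expressed at a high level. The 773 members lay in 593 genes, and 592 of these have more than 1 transcript. Their median gene TPM was 78.1 and 76.9 in the 2 libraries, against 21.8 and 21.6 for the 6053 other detected multi-isoform genes. Of all 6645 such genes, 8.91% hosted a member, and of the 3886 with a retained-intron model 15.2% did. That share was 3.61% at a gene TPM from 10 to under 20, 13.2% from 20 to under 50, 28.2% from 50 to under 100, 37.5% from 100 to under 200 and 47.5% from 200 on. A fixed minimum TPM is easier to pass in a gene of high TPM, so a count of hosts in a gene list has to be read beside the level of its genes.

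The gene lists that follow were chosen with earlier results in view, and their counts are descriptions. The median gene TPM given for a list is not that of its genes with a retained-intron model alone, so a share at that level is a rough guide. Of 24 detected genes of SR splicing factors and their regulators, 15 (62.5%) hosted a member, beside the 8.91% of all. Among the 22 with a retained-intron model it was 68.2%, beside the 15.2% of all and the 37.5% at a gene TPM from 100 to under 200. The median gene TPM of the list was 140. Srsf3-205, of an SR protein that binds exons, had 229 and 225 TPM and an IsoPct of 48.5 and 48.3, the highest of its gene. By expected counts it was below the coding Srsf3-202, with 5838 and 5310 against 13862 and 12652. Rsrp1-204, of an arginine and serine rich protein, had 158 and 157 TPM, led its gene with an IsoPct of 58.2 and 55.8 and kept a 1302-nt intron. Srsf5-212 had 100.2 and 105 TPM and an IsoPct of 32.2 and 30.2, and it kept a 1229-nt intron. Clk1, a kinase that phosphorylates SR proteins, had 3 members, which together took 44.1 and 41.5 of its IsoPct. Rbm39 and Rbm25, splicing cofactors, had 4 and 3 members and a summed IsoPct of 53.1 and 52.8, and of 30.0 and 32.3. The 29 members of the list had a median IsoPct of 11.7.

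Other splicing lists had fewer hosts. The core spliceosome had 9 of 29 (31.0%), or 39.1% of those with a retained-intron model, at a median gene TPM of 82.6. All genes with such a model had 28.2% at 50 to under 100 TPM. One of these hosts was Sf3b1, with Sf3b1-203, of the branch-site factor, at 27.6 and 26.8 TPM and an 1813-nt kept intron. The hnRNP list had 5 of 25 (20.0%), or 35.7% of those with a model at a median gene TPM of 182, near the 37.5% of all such genes at 100 to under 200. Hnrnpk alone had 5 members, led by Hnrnpk-217 with 218 and 226 TPM and an IsoPct of 24.3 and 25.8. Hnrnpl had 3, of which Hnrnpl-210 had 53.7 and 48.1 TPM. Nonsense-mediated decay factors had 1 of 13 (7.69%), Smg5, near the 8.91% of all genes, at a median gene TPM of 20.1. Chromatin genes had 2 of 24 (8.33%), Brd2 and Ogt, also near it.

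Among cell type lists, erythroid genes had 10 hosts of 37 (27.0%) and 16 members, at a median gene TPM of 158. Besides the globins, members lay in genes of haem synthesis (Alas2, Urod, Uros and Ppox), of iron uptake (Tfrc and Slc25a37) and of blood group antigens (Kel and Ermap). Tfrc-204, of the transferrin receptor, had 67.9 and 68.8 TPM and an IsoPct of 23.7 and 23.3 and kept no whole intron. Urod, the uroporphyrinogen decarboxylase, had 5 members that summed to 20.97 and 20.9. Slc25a37-203 kept a 1756-nt intron at an IsoPct of 10.1 and 10.7. Hepatoblast and plasma protein genes had 4 hosts of 30 (13.3%), Trf, Vtn, Dlk1 and Igf2. Only 5 of the 30 have a retained-intron model in the annotation, against 19 of the 37 erythroid genes, so the 2 lists had unequal chances. Among genes with a model the order was the reverse: 80% of these 5 hepatoblast genes and 52.6% of these 19 erythroid genes hosted a member. Of all genes with a model, 37.5% did at 100 to under 200 TPM and 47.5% at 200 TPM or more. The list medians, 158 TPM and 196 TPM for the hepatoblast list, are not those of the genes with a model alone. With only 5 hepatoblast genes with a model, the order of the 2 lists is not firm. In bulk tissue, fewer cells of a type and less RNA per cell cannot be told apart.

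Other lists are given by the same counts. The cell cycle list had 13 hosts of 27 (48.1%), or 56.5% of those with a model at a median gene TPM of 154. Of all genes with a model, 37.5% hosted a member at 100 to under 200 TPM. Cdk4 was among the hosts of the list with 4 members, and the count takes in Ccnl1 and Ccnl2, cyclin L genes of transcription and splicing. Tyms-202, of thymidylate synthase, had 77.8 and 74.8 TPM, and Mcm3-203, of the replicative helicase, had 54.1 and 54.8 TPM. Oxidative phosphorylation had 20 of 59 (33.9%), or 54.1% of those with a model at a median gene TPM of 265, beside 47.5% of all at 200 TPM or more. It was led by Atp5j-208 of the ATP synthase with 352 and 345 TPM and an IsoPct of 72.3 and 72.2. That list was drawn by symbol and counts the assembly factors Ndufaf3 and Ndufaf8. Ribosomal protein genes had 21 of 65 (32.3%), or 44.7% of those with a model, and 35 members, with the lowest median IsoPct of the lists, 1.19, at a median gene TPM of 629. All genes with a model at 200 TPM or more had 47.5%. By symbol that count takes in the kinase gene Rps6kb1. Besides Rps20-201, Rpl5-205 had an IsoPct of 47.6 and 45.8, Rps16-203 of 35.6 and 34.0 and Rps19-206 of 25.4 and 24.5. Rpl5-205 was named after its values were seen. Many ribosomal protein genes have near-identical pseudogene copies, which makes the split of their reads uncertain. Translation factors had 10 of 40 (25%), counting the kinase Eef2k, or 38.5% of those with a model at a median gene TPM of 66. At 50 to under 100 TPM, 28.2% of all genes with a model hosted a member. The proteasome had 7 of 34 (20.6%), counting Psmc3ip, which is not a subunit. Among proteasome genes with a model that was 31.8% at a median of 183 TPM, below the 37.5% of all at that level. The tRNA synthetases had 4 of 15 (26.7%), or 30.8% of those with a model, near the 28.2% of all at their median of 84.8 TPM.

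**Figure D5:**
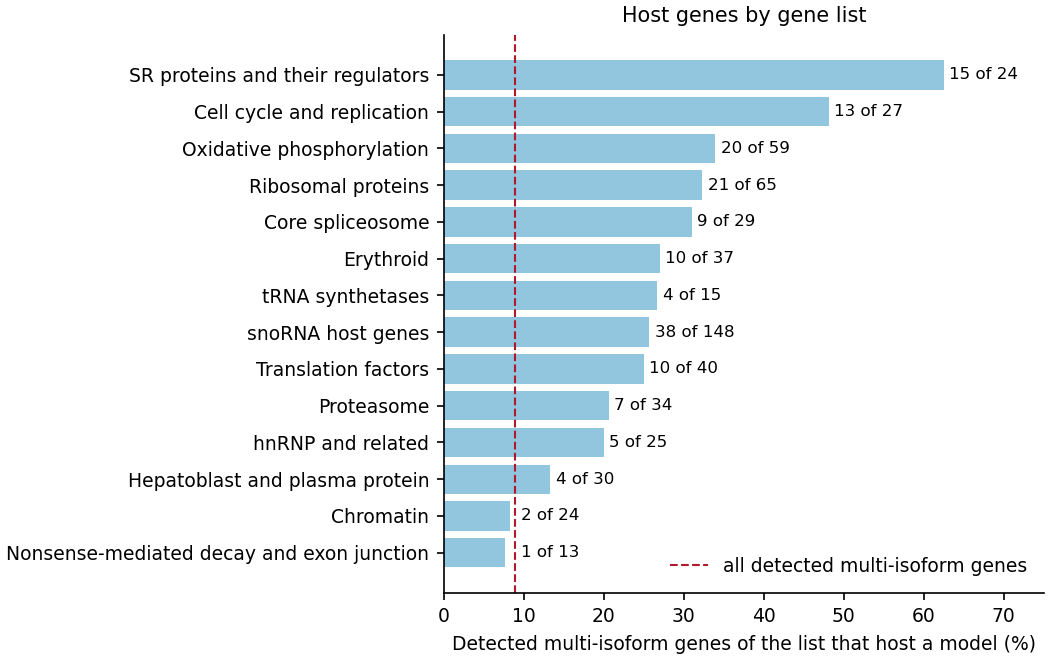
Percent of the detected multi-isoform genes of each list that host a member, with the counts beside the bars, and the 8.91% of all such genes as a dashed line. SR proteins and their regulators had the highest share, 62.5%, and nonsense-mediated decay factors the lowest, 7.69%.

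Genes that carry small nucleolar RNAs in their introns had 38 hosts of 148 (25.7%), beside the 8.91% of all. That was 39.6% of those with a model, at a median gene TPM of 49.2. All genes with a model had 13.2% at 20 to under 50 TPM and 28.2% at 50 to under 100. The list had 82 members with a median IsoPct of 4.94. All 23 members outside protein-coding genes lay in 5 genes of this list, Gas5, Snhg5, Zfas1, 1110038B12Rik and AA465934. Gas5, a growth arrest transcript that hosts small nucleolar RNAs, had 14 members, the most of any gene, with IsoPct values from 1.05 to 9.82 and a sum of 58.2 and 54.5. Nop56, of a box C/D ribonucleoprotein, had 7 with a sum of 22.1 and 21.6. A small RNA gene lay wholly inside an exon of 32 members (4.34%), against 74 (0.837%) of the 8838 models that missed the minimums. Gas5-218, with 24.7 and 21.3 TPM, held 6 small RNA genes. These shares count overlapping models of 1 gene as separate cases and are not matched for gene TPM. Whether reads of these models came from the small RNAs or their precursors was not tested. The libraries took RNA above 200 nt.

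In 470 of the 593 host genes there was 1 member, in 90 there were 2 and in 33 there were 3 or more. Members summed to an IsoPct over 50 in both libraries in 22 of the 90 genes with 2 and in 7 of the 33 with 3 or more. The next 4 genes are of the latter. The 3 members of Tsn, of the nucleic-acid-binding protein translin, summed to an IsoPct of 91.9 and 91.3, with 94.9 and 91.9 TPM for Tsn-204. The 3 of Nmd3, of the export adaptor of the large ribosomal subunit, summed to 93.9 and 91.8, those of Mrps5 to 69.0 and 71.3 and those of Mtx1 to 61.4 and 59.8. In other genes they were traces: the 4 of Rps18 summed to 2.75 and 2.98 and the 3 of Atp5b to 1.36 and 1.17. Members of 1 gene share exons and so share reads, and they are not independent of each other. Host genes held 1264 further retained-intron models that missed a minimum, 117 of them at 0 in both libraries.

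The 2 pools gave nearly the same values. IsoPct differed by a median of 1.02 points between libraries, and 535 members (69.2%) were within 2 points. The correlation of IsoPct between the libraries over the 773 members was r = 0.99, with both libraries mapped to the same models. The median fold between pools in TPM was 1.095 for members and 1.063 for the other transcripts past the minimums. Members past 1.5-fold numbered 27 (3.49%), beside 2.08% of 8426 other transcripts. Of these, 18 were higher in replicate 1 and 9 in replicate 2, and their median expected count was 128, against 295 and 263 for all members. A difference of over 10 points of IsoPct was found in 3 members (0.388%), beside 5.00% of the other transcripts, which have higher IsoPct values to begin with. They were Uxt-206, Prtn3-204 and Ptpn12-205, and the first had the largest difference, 40.9 against 22.7.

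Among members with at least 200 counts in each library, Tpt1-208, of a translationally controlled tumour protein, was the furthest towards replicate 1, with 18.4 and 10.7 TPM. Its ratio of 1.72 had a 95% counting interval of 1.45 to 2.04, at an IsoPct of 3.11 and 1.81. Cdc20-202, of the activator of the anaphase-promoting complex, had 25.6 and 16.3 TPM. Ppox-202, of the penultimate step of haem synthesis, was the furthest the other way, with 17.0 and 25.1 TPM and a ratio of 0.678 (0.581 to 0.790). Gas5-222 had 22.2 and 30.0 TPM. These intervals are exact binomial ones that cover counting error only: they leave out the error of sharing reads among transcripts, and amplified reads without molecular tags are not independent molecules. With 1 library a pool, none of these differences has a replicate check.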

How the data were processed

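Total RNA of 2 pools of embryonic liver was sequenced, and each library has 1 transcript table and 1 gene table. The authors deposited expected counts per transcript, estimated and not normalized, and TPM scaled to 1 total over all entries, spike-ins included, per the file headers. The deposited IsoPct is a percent of the gene's TPM. The deposited posterior standard deviations and TPM interval bounds were treated as scores, and the level of the interval is not given in the sources used here. Quantification was on mm10 with GENCODE M4, per the text files deposited with the libraries. Aligner, quantifier and strand setting: not given in the sources used here, so reads of a gene and of an antisense partner cannot be told apart.

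Transcript types, exons and letters came from GENCODE M21, matched by transcript identifier without its version. Of 103639 mouse transcripts, 101510 had a type in M21. Structures were read only where the transcript length was the same in both annotations. Kept introns are introns of another transcript of the gene that lie wholly in 1 exon of the model on the same strand. Their letters came from the model's transcript sequence, since no genome was used here. Ratios between libraries used TPM plus 0.1, and counting intervals were exact binomial at 95%. A count of 3 stood for 0.0953 and 0.103 TPM for a transcript of 1 kb. With 1 group there was no test between conditions.

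The members, the 14 gene lists and the rule for named models were chosen with earlier results of these data known. The rule names the 15 members highest by TPM, the 12 highest by IsoPct in genes of at least 20 TPM, the 5 longest and the 5 shortest, the 5 at each end of the ratio between libraries among those with at least 200 counts, members of genes with 3 or more, up to 3 per list, and the 3 models on each side of the TPM minimum. Some items that the rule names are not reported here. Python 3.11.15, pandas 2.3.3, numpy 2.4.6 and scipy 1.17.1 were used, and edgeR for TMM factors on expected counts rounded to whole numbers. The structure steps were checked on simulated transcripts. The closing section gives alternatives to the minimums, the scale and the set of models.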

Additional observations from a re-analysis of the deposited data

How the results depend on the processing

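The minimums set most values, and the cause of each move was not tested beyond what the minimum itself selects. Kept introns are taken here over introns of any other transcript, with a median of 239 nt and 50% GC under the main minimums. With a minimum of 1 TPM there were 2192 members (15.3% of the models) with a median IsoPct of 9.04 and a median length of 1460 nt. Of these, 8.39% led their gene, they held 16.9% of host gene reads, 22.9% of detected genes hosted one, their kept introns had a median of 307 nt, and 138 differed over 1.5-fold and 22 by over 10 points between the pools. At 10 TPM these values were 388 (2.72%), 23.1, 712 nt, 23.5%, 29.9%, 4.74%, 244 nt and 6 past 1.5-fold, and the kept introns had 48.6% GC. With a minimum count of 100 the percent of models was 4.77%, the median IsoPct 16.3, the length 812 nt, leaders 16.4%, host gene reads 24.2%, hosts 7.9%, the kept introns 252 nt, and 12 members differed over 1.5-fold. With no minimum count the length was 752 nt and leaders 14.9%. TPM rescaled without spike-ins gave a median IsoPct of 15, 5.76% of models, 14.5% leaders, 9.42% hosts and kept introns of 252 nt. Leaving out models with a small RNA gene gave 16.3 IsoPct, 5.23% of models, 15.7% leaders and 50.9% GC. In replicate 2 alone and replicate 1 alone, in that order, the counts of members were 863 and 880, the percent of models 6.04 and 6.16, the median IsoPct 14.4 and 14, the length 759 and 751 nt, leaders 15.3% and 15.2%, host gene reads 22.5% and 21.5%, hosts 9.66% and 9.87%, kept introns 236 and 239 nt and GC 50.5% and 50%. By expected counts the median share of a gene was 7.03, with 1 member per gene the median IsoPct was 19.1, and members held 42.3% of host gene TPM. Introns of protein-coding transcripts alone had a median of 210 nt and 51.1% GC. A pseudocount of 1 left 17 members past 1.5-fold, none (0) passed 2-fold, and 50 passed 5 points. Alternatives chosen after seeing the data gave 10.8% of host gene reads without Hba-a1 and Hbb-bs and a median IsoPct of 15.3 from the posterior mean TPM. Without models of at most 50 bases outside reference exons, the median IsoPct was 14, with 13.1% leaders. Of 101 alternative values, 38 stayed within 1 standard deviation of the values of the single libraries or, for counts, within 1.5 times, and 63 did not. The order of the 4 transcript types and the split by structure were not run under these alternatives. No paired analysis was possible because there is 1 group. The count of 84 members is uncertain by over 20%, and the parts of depth and of shared reads in that were not tested. The 2 libraries cannot give an error beyond their difference.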

Other observations

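Retained-intron models were also found in genes outside the lists. Taf10, a subunit of the general transcription factor TFIID, had Taf10-202 at 129 and 113 TPM and Taf10-201 at 70.2 and 77.8 TPM, and its coding transcript of 4281 nt had 5.29 and 4.60 TPM. Mylk3-205, of a myosin light chain kinase, had 7.96 and 9.35 TPM, while the cardiac markers Myl7 and Myh6 stood at 19.5 and 18.9 TPM and at 0.31 and 0.37 TPM. Ncf4-206, of the phagocyte NADPH oxidase, had 21.3 and 25.9 TPM and led its gene with an IsoPct of 77.5 and 80.0. Prtn3-204, of a granulocyte protease, had 19.6 and 16.0 TPM and an IsoPct of 58.3 and 48.0. Taf10 and Prtn3 were chosen after their values were seen.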
